A study of Homo sapiens with 2 samples.

Results

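The 49 genes described here encode the proteins that copy chromosomal DNA in S phase, among them the licensing factors of replication origins, the helicase and polymerases of the fork, and enzymes that supply nucleotides. They were taken by gene symbol from the 1 deposited table, and 49 of the 49 are among its 10987 genes. The table compares 1 library of THP1 cells treated with bort (bortezomib, an inhibitor of the proteasome) for 24 h with 1 library of untreated THP1 cells, a human monocytic leukaemia line. Its values are FPKM, the fragments of a transcript divided by its length and by the mapped fragments of the library, so levels of different genes can be compared within a library. Neither condition has a replicate, so no test can be made and each difference is between 2 libraries. The number of reads behind the values is unknown, and no counting error can be given. Where a pair of values is given for a gene, the untreated library comes first.

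The labelled cell type did not match its markers. All 8 erythroid markers looked up were listed, with a summed level of 3117 FPKM in the untreated and 3048 FPKM in the bort-treated library, led by the fetal haemoglobin genes HBG1 and HBG2. The erythroid factor genes were lower in the bort-treated library, GATA1 at 161 and 48.7 FPKM and KLF1 at 147 and 17.4 FPKM. Of 12 monocytic and myeloid markers 5 were listed, summing to 24.7 and 63.4 FPKM, and the defining genes CD14, CSF1R and MPO were not listed. The libraries are therefore named by their labels, and the part of cell identity in the differences below was not tested.

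Before S phase, the origin recognition complex (ORC) with CDC6 and CDT1 loads the MCM2-7 hexamer onto DNA, which licenses an origin. CDC45 and the GINS complex then turn the hexamer into the active helicase, primase and polymerase alpha lay down primers, and polymerases delta and epsilon extend them with the sliding clamp PCNA. Many of these genes are known targets of E2F transcription factors, which drive their expression as cells enter S phase.

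Most replication genes were lower in the bort-treated library. Of the 49 genes 35 were lower and 14 higher, against 5461 lower and 5526 higher of all 10987 genes. The median difference on the log2(FPKM + 1) scale was -0.57, against 0.0049 over all genes. By 2-fold or more 13 fell (26.5%), against 10.2% of all genes, and 2 rose (4.08%), against 8.08% of all genes. The genes that fell were MCM2, MCM3, CDC45, GINS2, GINS4, POLD1, POLD2, POLE4, FEN1, LIG1, TYMS, CHAF1A and UHRF1, and the genes that rose were ORC3 and ORC6. The other 34 stayed within 2-fold. The summed level of the 49 genes was 2103 FPKM in the untreated and 1318 FPKM in the bort-treated library, 62.6% of the untreated sum. Among all genes past 2-fold 44.1% were higher, and 54.2% when scaling left out the 20 genes with the highest sum of both libraries. By the same scaling 23.1% of the replication genes past 2-fold were higher, against 13.3% on the deposited scale. Taken for each library separately, the 20 most abundant genes held 10.8% of the summed FPKM in the untreated and 21.6% in the bort-treated library. In bulk RNA, fewer cells in S phase and less RNA per cell cannot be told apart.

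**Figure D1:**
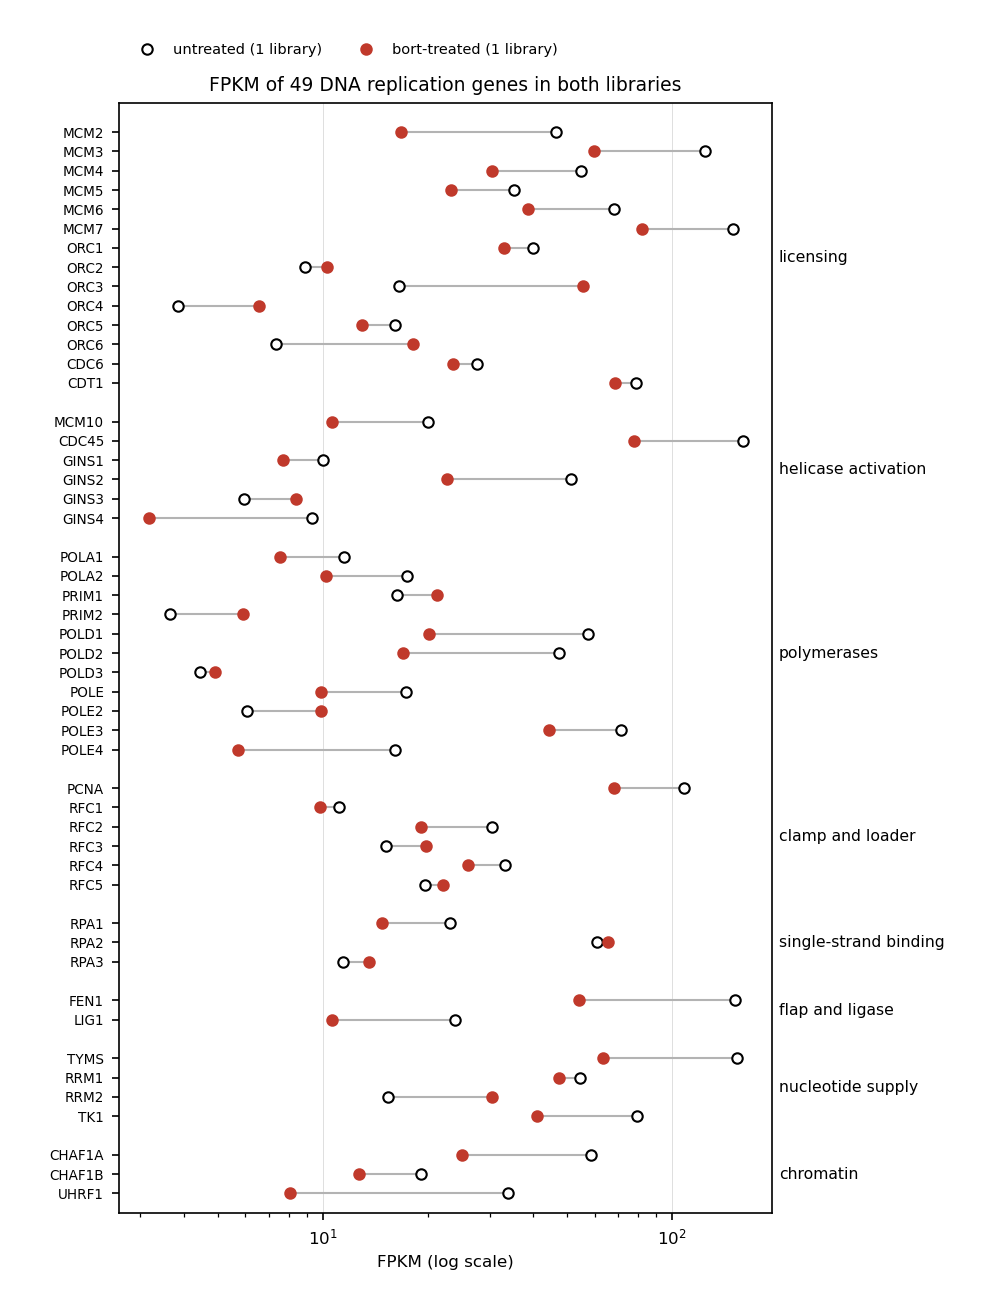
FPKM on a log axis of the 49 replication genes by role, with open circles for the untreated library and filled circles for the bort-treated library, 1 library each. All 6 MCM2-7 genes sit lower in the bort-treated library, whereas ORC3 and ORC6 sit higher.

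To show the sequence before these genes, promoter windows of RefSeq (build GRCh38.p14, 250 bases before to 50 bases after a transcription start) were searched on both strands for 4 octamers of the E2F type, TTTCCCGC, TTTGGCGC, TTTCGCGC and TTTGCCGC. Windows were matched by symbol for 43 of the 49 genes, and MCM4, MCM5, GINS4, POLD3, RPA2 and RPA3 were not matched. An octamer was found for 20 of the 43 genes (46.5%), against 6.93% of the 8544 genes of the FPKM table with a window and 3.99% of all 27305 genes with one. The stretches below, each of 100 bases, show octamers near the start of genes that fell (MCM2, MCM3, GINS2, POLE4, UHRF1) or were lower within 2-fold (MCM6, MCM7) and, for contrast, of ORC3, which rose, and POLE2, which was higher within 2-fold. They run 5′ to 3′ in the direction of the gene, from 80 bases before the start to 20 after it, or from 160 to 61 bases before it for MCM6, and capitals mark the octamers, also where they lie on the reverse strand.
MCM2 (chr3:127598331-127598430, plus strand): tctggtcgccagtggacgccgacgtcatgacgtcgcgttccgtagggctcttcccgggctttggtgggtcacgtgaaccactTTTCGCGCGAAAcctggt
MCM3 (chr6:52284723-52284822, minus strand): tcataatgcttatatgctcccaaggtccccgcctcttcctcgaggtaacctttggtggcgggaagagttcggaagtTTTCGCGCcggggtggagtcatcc
MCM7 (chr7:100101378-100101477, minus strand): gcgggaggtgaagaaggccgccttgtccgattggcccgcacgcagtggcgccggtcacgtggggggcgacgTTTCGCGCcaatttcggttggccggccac
MCM6 (chr2:135876504-135876603, minus strand): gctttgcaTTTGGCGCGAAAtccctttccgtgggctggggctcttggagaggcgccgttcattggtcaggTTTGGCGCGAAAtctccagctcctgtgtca
GINS2 (chr16:85688935-85689034, minus strand): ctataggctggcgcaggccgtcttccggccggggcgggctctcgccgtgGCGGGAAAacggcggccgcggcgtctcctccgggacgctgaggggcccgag
POLE4 (chr2:74958563-74958662, plus strand): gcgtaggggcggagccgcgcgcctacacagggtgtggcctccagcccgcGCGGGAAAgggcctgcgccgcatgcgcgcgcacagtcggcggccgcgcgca
UHRF1 (chr19:4909421-4909520, plus strand): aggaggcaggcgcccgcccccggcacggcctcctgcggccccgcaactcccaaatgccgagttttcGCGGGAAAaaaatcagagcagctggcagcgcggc
ORC3 (chr6:87590055-87590154, plus strand): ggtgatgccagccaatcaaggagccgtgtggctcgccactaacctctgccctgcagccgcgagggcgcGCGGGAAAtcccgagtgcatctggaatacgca
POLE2 (chr14:49688195-49688294, minus strand): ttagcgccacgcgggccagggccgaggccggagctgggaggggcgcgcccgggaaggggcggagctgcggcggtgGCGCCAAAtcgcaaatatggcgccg

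In MCM2 and at both places in MCM6, a forward and a reverse octamer overlapped, so that the capitals form 1 longer run. MCM3, MCM7 and UHRF1 each hold 1 more octamer outside the stretch shown, that of UHRF1 in the window of another start. The octamer of ORC3 read the same as those of GINS2, POLE4 and UHRF1, GCGGGAAA on the strand of the gene. Of the 20 genes with an octamer 16 were lower and 7 fell by 2-fold or more, with a median log2 difference of -0.74. Over the FPKM table, 12.8% of the genes with an octamer were lower by 2-fold or more, and their median was -0.087. Of the 23 replication genes with a window and no octamer 16 were lower and 5 fell by 2-fold or more, with a median of -0.34. The median GC content of the transcripts was 49.4% for the replication genes with an octamer and 45.8% for those without. With the trend with GC content removed, described further on, the medians of these 2 groups were -0.72 and -0.46. Over the table, 9.34% of the genes with a window and no octamer were lower by 2-fold or more, and their median was 0.022. A match is a description of the letters in the window, and no binding was measured here.

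The licensing genes parted by complex. Of these 14 genes 2 fell by 2-fold or more (14.3%, against 10.2% of all genes) and 2 rose (14.3%, against 8.08%). All 6 subunits of the MCM2-7 hexamer, the motor of the replicative helicase, were lower in the bort-treated library. MCM2 fell from 46.5 to 16.7 FPKM, a log2 difference of -1.42, and MCM3 fell from 124 to 59.5 FPKM, a log2 difference of -1.05. These were the subunits past 2-fold. MCM4 was at 54.9 FPKM in the untreated and 30.5 FPKM in the bort-treated library. MCM5 was at 35.2 and 23.3 FPKM, and MCM6 at 68.0 and 38.6 FPKM. MCM7, the most abundant subunit in both libraries, was at 149 and 82.2 FPKM. The sum of the hexamer was 478 FPKM in the untreated and 251 FPKM in the bort-treated library, 52.5% of the untreated sum. The highest subunit exceeded the lowest 4.24-fold in the untreated and 4.91-fold in the bort-treated library.

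The 6 subunits of ORC, which marks origins and recruits the loaders, showed another pattern, with 4 higher and 2 lower. ORC3 rose from 16.5 to 55.5 FPKM, a log2 difference of 1.69, and became the most abundant subunit of the complex. ORC6 rose from 7.32 to 18.1 FPKM, a log2 difference of 1.2. ORC1, the subunit with ATPase activity that is most tied to the cell cycle, was at 39.9 FPKM in the untreated and 33.0 FPKM in the bort-treated library. ORC2 was at 8.90 and 10.2 FPKM, ORC4 at 3.85 and 6.55 FPKM, and ORC5 at 16.1 and 12.95 FPKM. The ORC sum was 92.6 FPKM in the untreated and 136 FPKM in the bort-treated library. ORC3 alone made up 16.5 and 55.5 FPKM of these sums. The loaders lay within 2-fold, with CDC6 at 27.6 and 23.6 FPKM and CDT1 at 78.6 and 68.5 FPKM.

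Of the 6 genes that activate the helicase, 5 were lower and 3 fell. CDC45, which rides with the hexamer at the fork, was the most abundant and fell from 159 to 77.7 FPKM, a log2 difference of -1.02 that lay just past 2-fold. The GINS complex of 4 small subunits was uneven. GINS2 fell from 51.3 to 22.6 FPKM and GINS4 from 9.31 to 3.17 FPKM, whereas GINS1 was at 10.01 and 7.68 FPKM and GINS3 at 5.96 and 8.37 FPKM. MCM10, which helps to start unwinding, was at 20.1 FPKM in the untreated and 10.6 FPKM in the bort-treated library. The 11 subunits of the active helicase (MCM2-7, CDC45 and GINS) summed to 713 FPKM in the untreated and 370 FPKM in the bort-treated library, and GINS3 alone of them was higher.

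Among the 11 polymerase and primase genes 7 were lower, against 5461 of all 10987 genes. By 2-fold or more 3 fell (27.3%, against 10.2% of all genes). POLD1, the catalytic subunit of polymerase delta, which copies the lagging strand, fell from 57.3 to 20.1 FPKM. Its partner POLD2 fell from 47.5 to 17.0 FPKM, while the third subunit POLD3 was at 4.45 and 4.90 FPKM. In polymerase epsilon, which copies the leading strand, the small subunit POLE4 fell from 16.1 to 5.71 FPKM. The catalytic subunit POLE was at 17.3 and 9.87 FPKM and POLE3, the histone-fold partner of POLE4, at 71.4 and 44.5 FPKM. POLE2 was the polymerase gene with the most positive difference, at 6.07 and 9.89 FPKM. Of polymerase alpha, POLA1 was at 11.5 and 7.54 FPKM and POLA2 at 17.4 and 10.2 FPKM. Of its primase, PRIM1 was at 16.3 and 21.3 FPKM and PRIM2 at 3.65 and 5.91 FPKM. With the trend with GC content removed, described further on, PRIM1 turned from a log2 difference of 0.36 to -0.032, while PRIM2 was at 0.26.

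No gene of the sliding clamp, its loader or replication protein A passed 2-fold, against 10.2% of all genes lower and 8.08% higher. PCNA, the clamp that holds polymerases on DNA, was at 108 FPKM in the untreated and 68.2 FPKM in the bort-treated library, a log2 difference of -0.65. Of the loader subunits, RFC2 was at 30.5 and 19.0 FPKM and RFC3 at 15.1 and 19.7 FPKM, and the differences of RFC1, RFC4 and RFC5 lay between these. Replication protein A coats single-stranded DNA, and its sum of 93.9 FPKM in the bort-treated library was 98.5% of that in the untreated library. RPA1 was at 23.1 and 14.7 FPKM, RPA2 at 60.8 and 65.6 FPKM and RPA3 at 11.4 and 13.5 FPKM.

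Both genes that finish lagging-strand fragments fell by 2-fold or more, against 10.2% of all genes. FEN1, the nuclease that trims flaps, fell from 151 to 54.0 FPKM, a log2 difference of -1.47. LIG1, the ligase that seals the remaining nicks, fell from 23.9 to 10.6 FPKM, a log2 difference of -1.10.

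Of the 4 nucleotide supply genes 1 fell, and the other 3 stayed within 2-fold. TYMS, which makes thymidylate, was the second most abundant of the 49 genes in the untreated library and fell from 154 to 63.4 FPKM, a log2 difference of -1.26. TK1, the salvage kinase for thymidine, was at 79.4 and 41.0 FPKM and lay just short of 2-fold with a log2 difference of -0.94. Its transcript has a GC content of 62.8%, and with the GC trend removed its difference was -0.41. In ribonucleotide reductase, which makes deoxyribonucleotides, the large subunit RRM1 was at 54.4 and 47.3 FPKM. The small subunit RRM2 was at 15.4 and 30.5 FPKM, with a log2 difference of 0.94. Its direction is uncertain, since AC007240.1, a gene that shares exons with it on the same strand, was at 33.4 and 2.002 FPKM, and the sum of both was 48.8 FPKM in the untreated and 32.5 FPKM in the bort-treated library.

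All 3 genes of chromatin behind the fork were lower, 2 of them by 2-fold or more (66.7%, against 10.2% of all genes). UHRF1, which reads hemimethylated DNA and recruits the maintenance methyltransferase, fell from 33.9 to 8.05 FPKM. Its log2 difference of -1.95 was the most negative of the 49 genes, and 148 of all 10987 genes had a more negative one. CHAF1A, the large subunit of the chromatin assembly factor CAF-1, fell from 58.7 to 25.1 FPKM, while its partner CHAF1B was at 19.1 and 12.7 FPKM.

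**Figure D2:**
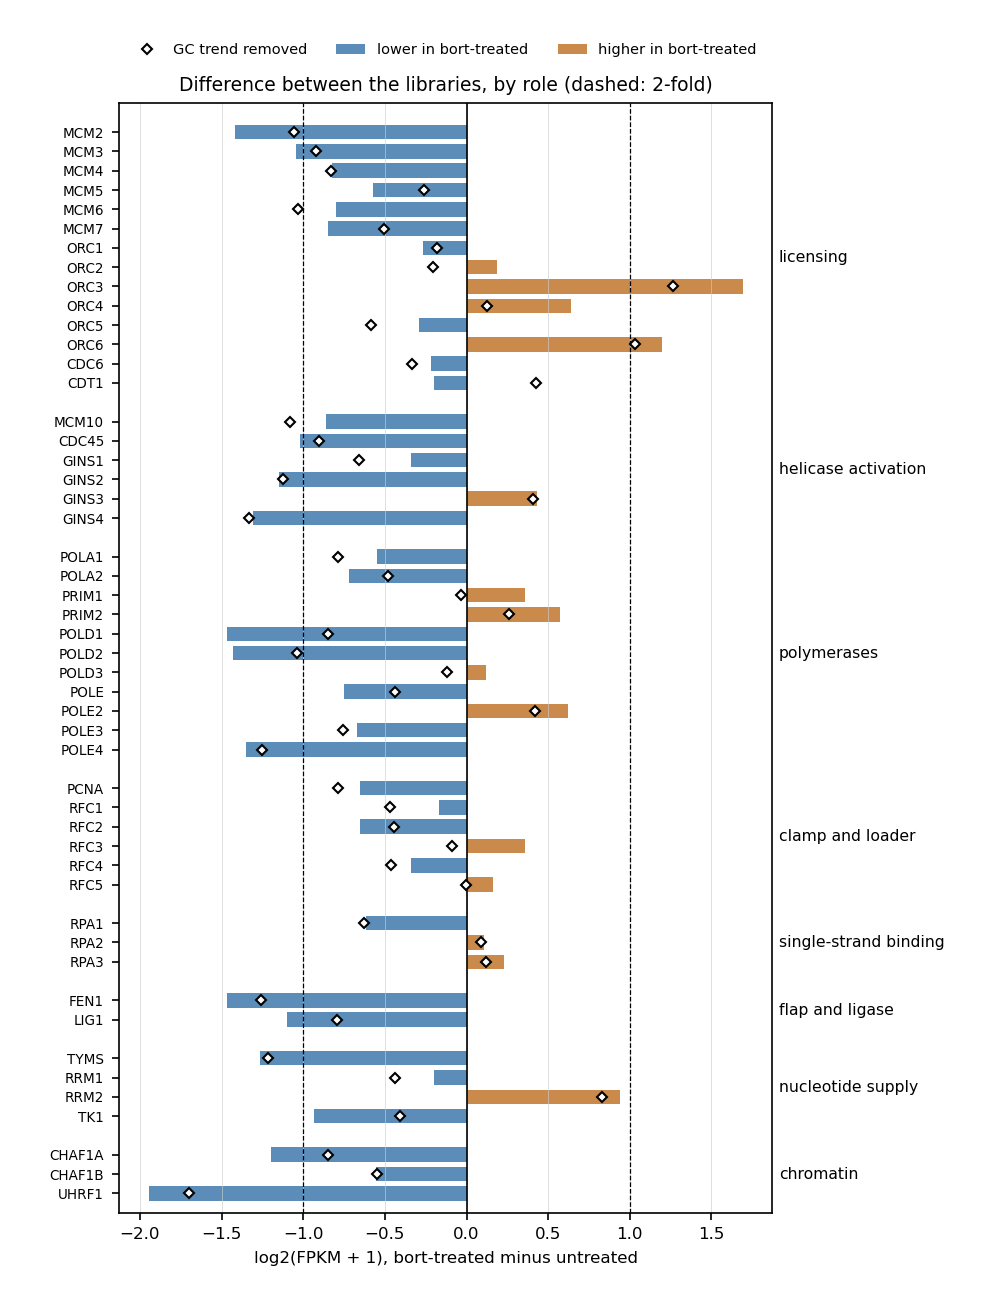
Difference of log2(FPKM + 1), bort-treated minus untreated, for the 49 replication genes by role, with bars for the deposited values, diamonds for values with the trend with GC content removed and dashed lines at 2-fold. UHRF1 reaches -1.95 and ORC3 1.69, and 34 genes are lower and 9 higher by both the bar and the diamond.

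The GC content of the transcripts moved with these differences. Across the 49 genes the Spearman correlation of the log2 difference with GC content was -0.70, and across the 10907 genes of the table with a transcript in GENCODE 29 it was -0.49. Both describe 1 pair of libraries, and genes are not independent replicates. Of the 25 replication genes at or above their median GC content of 48.1%, 23 were lower in the bort-treated library, against 12 of the 24 below it. The ORC genes had a median GC content of 41.0% and the MCM2-7 genes one of 54.1%. With the trend over all genes removed by a lowess fit, 39 of the 49 replication genes were lower and the median difference was -0.48. Past 2-fold, 10 were then lower, against 6.11% of all genes so treated, and 2 were higher, against 6.92%. Of the 13 genes that fell on the deposited scale 8 were still lower by 2-fold, and MCM3, CDC45, POLD1, LIG1 and CHAF1A were not. MCM6 and MCM10 were past 2-fold on this scale alone, at -1.03 and -1.08. ORC3 and ORC6 were still higher, at 1.26 and 1.03, and the MCM2-7 median was -0.87 in place of -0.84. The primase median went from 0.47 to 0.12 and the ORC median from 0.41 to -0.025. CDT1, the most GC-rich licensing gene at 64.9%, turned from -0.20 to 0.42. The other genes that turned were ORC2, PRIM1, POLD3, RFC3 and RFC5, all from higher to lower. What part of the differences the GC content accounts for was not tested.

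Further genes of the pathway gave mixed counts. Of 22 genes of nucleotide synthesis 8 fell by 2-fold or more (36.4%, against 10.2% of all genes). On the log2(FPKM + 1) scale 0 of them rose, against 8.08% of all genes, and the median difference was -0.76. CAD, the first enzyme of pyrimidine synthesis, had the most negative difference on the log2(FPKM + 1) scale and fell from 40.9 to 15.8 FPKM. DHODH, a later enzyme of that route, fell from 6.00 to 2.04 FPKM, and its ratio of 2.95-fold between the FPKM values exceeded the 2.59-fold of CAD. The purine enzymes IMPDH1 and IMPDH2 fell as well, IMPDH1 from 40.3 to 17.9 FPKM and IMPDH2 from 122 to 56.2 FPKM. DTYMK, the kinase that follows TYMS, fell from 33.2 to 14.6 FPKM. SAMHD1 fell from 7.51 to 2.93 FPKM and NME1, a nucleoside diphosphate kinase, from 98.5 to 48.5 FPKM. SAMHD1 degrades deoxynucleotides rather than making them, and NME1 shares exons with the readthrough gene NME1-NME2, at 402 and 163 FPKM, so its value is uncertain. RRM2B, the p53-inducible small subunit of ribonucleotide reductase, had the most positive difference of this list, at 2.28 and 4.96 FPKM. Its log2 difference was 0.86, while the ratio between its FPKM values was 2.17-fold.

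Of 21 genes that control origin firing 3 fell (14.3%, against 10.2% of all genes). On the log2(FPKM + 1) scale 0 of them rose, against 8.08% of all genes. Their median was -0.10, which became -0.32 with the GC trend removed and turned to 0.00070 and 0.0036 under 2 scalings. GMNN, the inhibitor of CDT1, fell from 47.3 to 21.2 FPKM and the helicase gene RECQL4 from 50.9 to 23.5 FPKM. SKP2, a ligase subunit that marks CDT1 for degradation, fell from 11.98 to 5.47 FPKM. With the GC trend removed RECQL4 lay within 2-fold, at -0.43, while GMNN and SKP2 were both at -1.33. CCNE2, a cyclin of S phase entry, had the most positive difference, at 2.25 and 5.32 FPKM, a ratio of 2.37-fold between the FPKM values. Of 18 other fork proteins 1 fell (5.56%, against 10.2% of all genes), the RNase H2 subunit gene RNASEH2C from 16.9 to 5.27 FPKM. On the log2(FPKM + 1) scale 0 of them rose, against 8.08% of all genes. Their median of 0.078 became -0.16 with the GC trend removed. The highest difference there was that of POLD4, the smallest polymerase delta subunit, at 2.65 and 5.31 FPKM, in contrast to POLD1 and POLD2. The ratio between the FPKM values of POLD4 was 2.002-fold, and with the GC trend removed its log2 difference was 1.12, past 2-fold. Of 12 further chromatin genes 3 fell, against 10.2% of all genes, and 1 rose (8.33%, against 8.08%). The maintenance methyltransferase DNMT1, which UHRF1 recruits, fell from 37.1 to 16.2 FPKM, SSRP1, a subunit of the histone chaperone FACT, from 144 to 67.4 FPKM and TONSL, a fork repair factor, from 35.2 to 14.1 FPKM, whereas the histone chaperone gene ASF1A rose from 12.2 to 33.7 FPKM. With the GC trend removed, 0 of these 12 chromatin genes passed 2-fold in either direction, against 6.11% of all genes lower and 6.92% higher. Of the 22 genes of nucleotide synthesis 4 were then lower by 2-fold or more and 0 higher.

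Of 16 genes of the E2F and RB family 1 fell (6.25%, against 10.2% of all genes) and 3 rose (18.8%, against 8.08%). TFDP1, a DNA-binding partner of several E2F proteins, fell from 37.7 to 17.2 FPKM. LIN54, a DNA-binding subunit of the DREAM complex, rose from 1.46 to 4.97 FPKM. E2F6, a repressor of the family, rose from 4.11 to 10.8 FPKM, and RBL2, the pocket protein p130, rose from 3.37 to 8.08 FPKM. With the GC trend removed E2F6 was still higher by 2-fold, at 1.04, and LIN54 and RBL2 lay within it, both at 0.83. The median of this list was 0.052, and -0.090 with the GC trend removed. As a point of comparison, of 16 mitosis genes 0 fell, against 10.2% of all genes, and 1 rose (6.25%, against 8.08%). Their median was 0.23. With the GC trend removed their median was 0.0023, 8 of the 16 were lower and 0 passed 2-fold. The kinase gene TTK rose from 9.16 to 22.6 FPKM, and the most negative difference was that of CDC20, at 148 and 91.7 FPKM. Whether the replication and mitosis genes differ could not be tested with 1 library per condition.

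The assignment of reads limits some values. In GENCODE 29, exons of FEN1, POLD1, POLA2, PRIM1 and RRM2 overlap those of another protein-coding gene on the same strand, and exons of 9 of the 49 genes, MCM2, MCM7, GINS2, FEN1 and TYMS among them, overlap such a gene on the opposite strand. Among the further genes named, POLD4 and NME1 overlap another on the same strand, and CCNE2, RBL2, RNASEH2C and SAMHD1 on the opposite strand. Of the 5 same-strand partners, FADS2 and AC007240.1 were listed in the table, FADS2 at 2.70 and 0.776 FPKM. RFC4 was at 33.2 and 26.0 FPKM and its opposite-strand partner EIF4A2 at 22.3 and 41.7 FPKM. Whether strand was used in the abundance estimate is not given in the sources used here.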

How the data were processed

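RNA was measured in 1 bort-treated (24 h) and 1 untreated library of THP1 cells. The labels name a TruSeq kit, the methods a stranded KAPA kit with poly-A selection. After trimming, the authors aligned reads by HISAT2 2.0.4, assembled transcripts in StringTie 1.2.3 and deposited FPKM per gene. GRCh37 is the build in the submitters' processing notes. No gene was below 0.501 FPKM in both libraries. Read depth is unknown, since FPKM gives no counts.

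For all 10987 genes the difference was log2(FPKM + 1), bort-treated minus untreated, which understates changes of low genes. The 2-fold threshold is that of the study. With 1 library per condition no p-value was computed. Members and lists were chosen with earlier results of these data known. Every member is described, by role group, and each further list by its extremes and genes past 2-fold. The values of 1 gene of a further list are not reported here. GC content came from the longest coding transcript of each gene in GENCODE 29, and its trend was removed by lowess with a span of 0.3. That annotation and the RefSeq promoter windows, whose coordinates are given, are of GRCh38, not the build of the table. GC content was joined to the table by gene identifier, and exon overlaps and promoter windows were joined by symbol. The calculations were tested on simulated data. Alternatives covered the pseudocount, a filter, scaling, GC content and the threshold. Computation used Python 3.11.15 with pandas 2.3.3, numpy 2.4.6 and scipy 1.17.1, the lowess of statsmodels 0.14.6, and matplotlib 3.10.9 for plots.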

Additional observations from a re-analysis of the deposited data

How the results depend on the processing

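For the 49 replication genes, 8 other settings were run (3 other pseudocounts, a low-value filter, 3 scalings and the GC trend removed). Of the values obtained 371 kept their direction and their side of 2-fold, 6 turned, 11 came within 2-fold and 4 passed it. The filter could not change any of them, since all 49 genes were at 1 FPKM or more in both libraries. With the GC trend removed 6 genes turned, ORC2 to -0.21, CDT1 to 0.42, PRIM1 to -0.032, POLD3 to -0.12, RFC3 to -0.088 and RFC5 to -0.0055. MCM3, CDC45 and LIG1 lay within 2-fold under that setting, under upper quartile scaling and under scaling by a total that leaves out the 20 most abundant genes. POLD1 and CHAF1A did so with the GC trend removed, where MCM6 and MCM10 passed 2-fold at -1.03 and -1.08. RRM2 passed 2-fold under these 2 scalings, at 1.04 and 1.05, though its direction is uncertain beside AC007240.1, which shares its exons and was at 33.4 FPKM in the untreated and 2.002 FPKM in the bort-treated library. The medians of the 49 genes and of their 8 role groups kept their direction and changed by less than a factor of 1.5 in fold under every setting run. The median of the firing genes turned to 0.00070 with upper quartile scaling and 0.0036 without the 20 most abundant genes, and those of the fork proteins and of the E2F and RB family turned to -0.16 and -0.090 with the GC trend removed. At 1.5-fold 24 replication genes were lower and 5 higher, and at 4-fold 0 and 0. Over all genes, 2282 were higher and 2378 lower at 1.5-fold, and 92 and 135 at 4-fold. Without a pseudocount the 2-fold counts were 1654 higher and 1708 lower, 1576 were higher with a pseudocount of 0.1 FPKM, and 666 were lower with the GC trend removed. The share of higher among all genes past 2-fold was 44.1%, and 54.2% without the 20 most abundant genes in the total. The causes of these changes were not tested. No paired analysis was possible because there is 1 untreated and 1 bort-treated library, and leaving a library out was not possible either. Unknown depth limits genes at a few FPKM most, such as GINS4 and POLE4.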
